A study of Mus musculus with 6 samples.

Results

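The genes described here are 9 that mark eosinophils, the granulocytes of allergy and of defence against worms. They are Ccr3, Siglecf, Epx, Prg2, Il5ra, Ear1, Ear2, Ear6 and Alox15, and they were found by matching the Ensembl identifiers of the count table to symbols of the GENCODE vM21 annotation. All 9 were listed among the 21780 genes of the table, of which 21700 are protein-coding. The libraries came from CD45+CD11b+ cells, sorted as myeloid cells from the pancreas of wild-type C57BL/6 mice. The study's methods give mice 6 to 8 weeks old of either sex, without saying which sex each library came from. The control group received an intraperitoneal injection of PBS, and the treated group 1 mg of whole β-glucan particles (WGP), which are hollow yeast cell walls rich in β-glucan. Cells were taken 7 days later, and 3 libraries were made for each group. The comparison asks how the myeloid cells of the pancreas differ after WGP. The labels name no animal, and the study states that each sample came from a separate animal in 1 experiment, so the p-values below measure the spread between animals of that experiment.

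Eosinophils mature in the bone marrow under interleukin 5, whose receptor has a private alpha chain, Il5ra, and a beta chain shared with the receptors for interleukin 3 and GM-CSF. They enter tissues along eotaxins and related chemokines read by the receptor CCR3, and in mice they carry the lectin Siglec-F. Their granules hold major basic protein (Prg2), eosinophil peroxidase (Epx) and ribonucleases of the EAR family, whose mRNAs are made mainly while the cell matures. Several of these genes are read in other cells too. Il5ra is also found on B-1 cells and basophils, major basic protein in basophils, Ear2 in monocytes and macrophages, Siglec-F on alveolar macrophages and Alox15 in resident macrophages of the peritoneum.

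The 6 libraries held between 35334645 and 43341834 counts. The cells carried the sorting markers. Ptprc (CD45) was at 1043, 965 and 949 CPM after PBS and 1747, 1536 and 1547 CPM after WGP. Itgam (CD11b) was at 189, 241 and 254 CPM after PBS and 388, 418 and 379 CPM after WGP. Both were thus higher in every WGP library, with log2 fold changes of 0.71 and 0.79, and that of the myeloid gene Lyz2 was 1.21. CPM here means counts per 1000000 counts of a library after TMM normalization. Low counts came in clumps, and the most frequent low count of a library, sought among genes with 5 to 100 counts, lay between 18.0 and 41.3. A count of that size may stand for a single molecule. Smaller counts occurred too, such as 2 for Ear1 in PBS replicate 2, so this unit is only approximate. RNA of Y-linked genes was present at 8972 and 10063 counts in PBS replicates 2 and 3 and at 0 or 1 count in the others, so sex and treatment cannot be fully told apart.

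The 9 genes did not move as 1 group. Alox15 was called higher and Ear2 lower after WGP, and the other 7 were not called. Ccr3 and Alox15 had their highest level in WGP replicate 1, as did Siglecf. Il5ra, Prg2, Epx, Ear1 and Ear6 had theirs in PBS replicate 1. A gene was called where edgeR's quasi-likelihood test gave an adjusted p (Benjamini-Hochberg) no higher than 0.05 and the log2 fold change was 1 or more in size. All 9 genes passed the filter on low counts. Of the 14429 genes tested, 9.49% were called, 4.53% higher and 4.96% lower, against 2 of the 9 (1 higher, 1 lower). The WGP libraries all lay above the PBS libraries for Ccr3 and Alox15, which holds for 16.0% of all genes tested, and all below them for Prg2, which holds for 16.1%. The median log2 fold change was -2.01 over the 9 genes, also with the 3 genes at 0 after WGP set at the bound that a floor of 3 counts gives, and -0.05 over all genes tested. Over the 6 genes with counts in both groups it was -0.23. In bulk RNA, fewer cells of a type and less RNA per cell cannot be told apart.

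**Figure D1:**
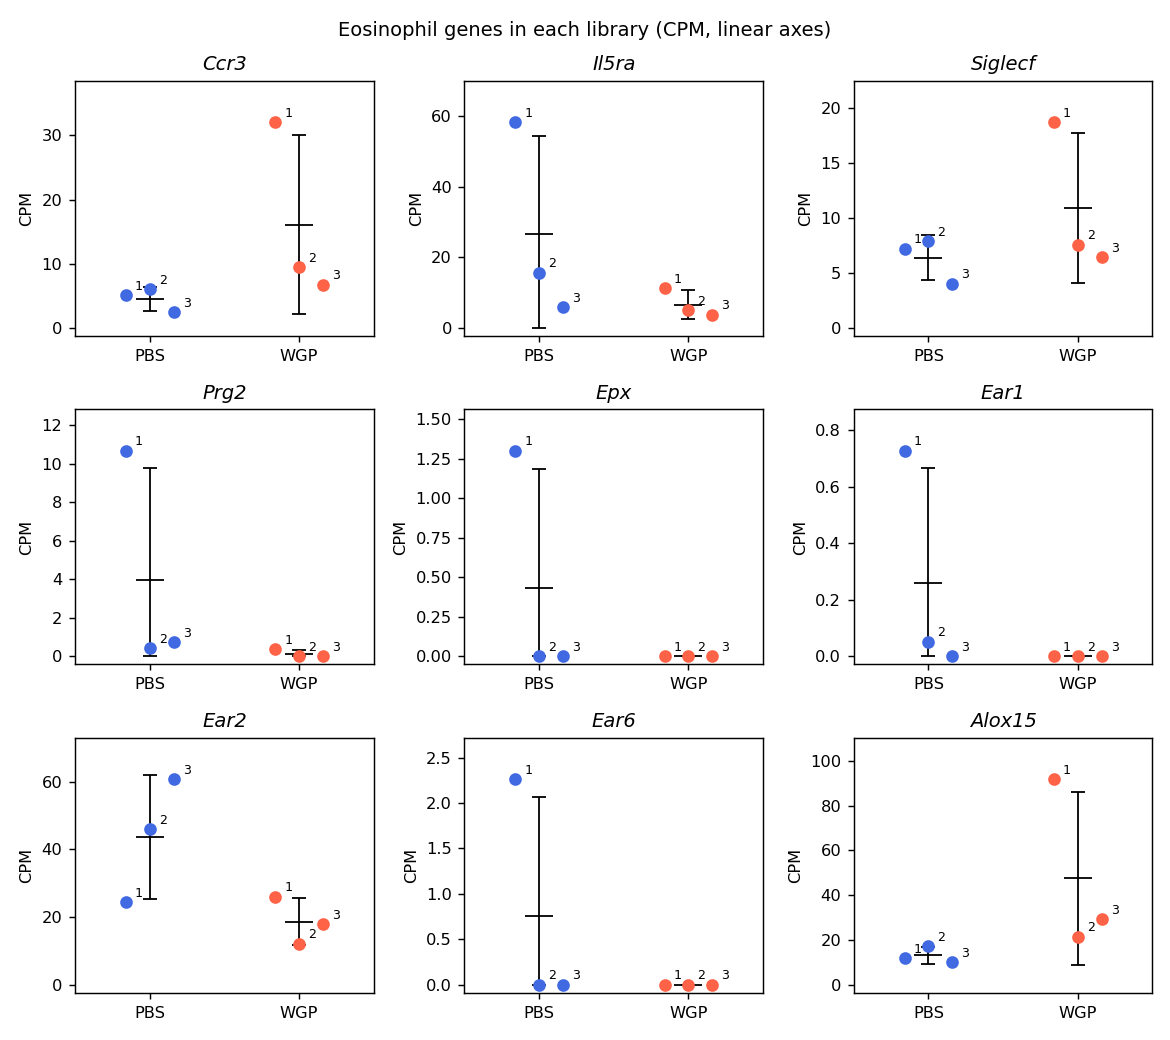
CPM of the 9 genes in each library on linear axes, with PBS in blue and WGP in red; the digit beside a point is the replicate number, the bar is the mean and the whisker the SD (n = 3), cut at 0. WGP replicate 1 is the highest point for Ccr3, Siglecf and Alox15, and PBS replicate 1 for Il5ra, Prg2, Epx, Ear1 and Ear6.

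Ccr3 encodes the receptor through which eosinophils follow eotaxins. It lies on chromosome 9 at chr9:124021972-124031689 (GRCm38, plus strand). The PBS libraries held 196, 233 and 100 counts of Ccr3 and the WGP libraries 1182, 393 and 275. In CPM these are 5.10, 5.98 and 2.44 after PBS and 32.1, 9.48 and 6.72 after WGP. Every WGP library lay above every PBS library, and replicate 1 alone held 66.5% of the summed CPM of the WGP group. The mean was 3.57 times as high after WGP. The log2 fold change was 1.84 (SE 0.61), and the edgeR adjusted p of 0.0779 missed the threshold. Ccr3 was called higher in 3 of the 16 other fits, namely by DESeq2 (adjusted p = 0.0348), by edgeR on counts divided by each library's most frequent low count (adjusted p = 0.0318) and by edgeR without WGP replicate 3 (adjusted p = 0.0440). With WGP replicate 1 left out Ccr3 had a log2 fold change of 0.85 and an edgeR adjusted p of 0.495. WGP replicate 1 stood at least 3-fold above both other WGP libraries in 0.916% of the 11681 genes with a mean of at least 1 CPM, and Ccr3, at 3.39-fold, is among these. The share was 4.29% for WGP replicate 2 and 0.779% for WGP replicate 3.

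Siglecf encodes Siglec-F, a sialic acid-binding receptor whose engagement leads eosinophils to die. It lies at chr7:43351341-43359531 (plus strand). The PBS libraries held 276, 306 and 164 counts and the WGP libraries 688, 312 and 263. The 2 groups overlapped, since WGP replicates 2 and 3 lay within the PBS range. The log2 fold change of Siglecf was 0.78 (SE 0.51; edgeR adjusted p = 0.377), and it was 0.14 without WGP replicate 1. Per kilobase of exon, Siglecf stood above Ccr3 in every PBS library (2.57 against 1.56, 2.82 against 1.83 and 1.44 against 0.747 CPM per kb). In WGP replicates 1 and 2 the order was the other way round (6.69 against 9.80 and 2.70 against 2.90 CPM per kb), and in WGP replicate 3 Siglecf was again the higher (2.30 against 2.05). Markers of alveolar macrophages, another cell with Siglec-F, were checked beside it. Of the 7 markers, 5 were tested and 1 was called higher, Marco, a scavenger receptor of many macrophages; Krt79 and Fabp1 were at 0 in all libraries. The summed level of the 7 was between 151 and 189 CPM after PBS and between 292 and 475 CPM after WGP. Marco was lowest in WGP replicate 1 among the WGP libraries (71.8, 275 and 189 CPM), and Itgax, another abundant marker of the list, was highest there (209, 158 and 188 CPM). The part of such macrophages in the Siglecf values was not tested.

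Il5ra encodes the alpha chain of the interleukin 5 receptor, at chr6:106710357-106749037 (minus strand). The PBS libraries held 2241, 608 and 238 counts and the WGP libraries 411, 203 and 151. PBS replicates 1 and 2 lay above all WGP libraries, and PBS replicate 3 lay within the WGP range. Replicate 1 held 73.1% of the summed CPM of the PBS group. The log2 fold change of Il5ra was -2.01 (SE 0.74; edgeR adjusted p = 0.105). Without PBS replicate 1 it was -0.71, with an edgeR adjusted p of 0.510. Il5ra was called lower in 4 of the 16 other fits. These included DESeq2 (adjusted p = 0.0321) and edgeR without PBS replicate 3 (adjusted p = 0.0240, log2 fold change -2.49). Another was edgeR with the presence of Y-linked RNA as a covariate (log2 fold change -3.15), which in effect sets WGP against PBS replicate 1 alone. The remaining fit had a replicate block, although replicate numbers did not pair the libraries.

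B cell genes shared with Il5ra the order of the PBS libraries. That order was not particular to B cells, since the summed neutrophil markers had it too (6434, 3720 and 2407 CPM). Ms4a1, which encodes CD20, was at 668, 162 and 97.5 CPM after PBS and at 30.2, 36.0 and 15.6 CPM after WGP. The list of T, B and NK cell markers held 8 genes, all tested, of which the B cell genes Ms4a1 and Cd79a were called lower and Cd8a higher. The summed level of the list was 1400, 370 and 230 CPM in PBS replicates 1, 2 and 3 and between 67.1 and 113 CPM in the WGP libraries. The part of B cells in the Il5ra values was not tested.

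The promoters of the 3 receptor genes are given because Ccr3 and Siglecf shared their highest library, WGP replicate 1, while Il5ra was highest in PBS replicate 1. They are the 250 bases before the transcription start in RefSeq (GRCm38.p6), written 5′ to 3′ on the gene's strand. Capitals mark matches on either strand to AGATAA or TGATAA (the motif of GATA factors, which the eosinophil lineage needs) or to GAGGAA (the core bound by ETS factors such as PU.1). RefSeq promoters were at hand for 7 of the 9 genes, and Prg2 and Alox15 are only named.
Ccr3, chr9:124021721-124021970, plus strand: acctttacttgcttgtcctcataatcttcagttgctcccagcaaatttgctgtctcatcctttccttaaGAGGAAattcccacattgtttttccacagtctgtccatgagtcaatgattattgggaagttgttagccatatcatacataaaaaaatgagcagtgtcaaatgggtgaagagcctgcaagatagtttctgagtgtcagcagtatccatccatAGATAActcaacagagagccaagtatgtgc
Siglecf, chr7:43351091-43351340, plus strand: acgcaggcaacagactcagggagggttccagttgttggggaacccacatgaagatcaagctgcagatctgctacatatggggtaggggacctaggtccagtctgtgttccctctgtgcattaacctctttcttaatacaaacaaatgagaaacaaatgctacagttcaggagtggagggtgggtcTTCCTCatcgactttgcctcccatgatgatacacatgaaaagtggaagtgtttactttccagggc
Il5ra, chr6:106749038-106749287, minus strand: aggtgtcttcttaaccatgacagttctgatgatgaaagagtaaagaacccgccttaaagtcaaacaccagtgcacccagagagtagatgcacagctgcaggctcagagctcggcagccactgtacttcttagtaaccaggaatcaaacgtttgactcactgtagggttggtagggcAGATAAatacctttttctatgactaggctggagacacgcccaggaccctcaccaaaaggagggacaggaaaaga

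A GATA match was present in 2 of the 7 promoters, those of Ccr3 and Il5ra, and in 16.6% of all 32851 promoters. An ETS match was present in 2 of the 7, those of Ccr3 and Siglecf, and in 23.2% of all promoters. These matches describe the letters only. Of the factors themselves, Gata1 had 50, 0 and 0 counts after PBS and 56, 37 and 69 after WGP, and it was not called. Spi1, which encodes PU.1, was at 382 ± 2.56 CPM after PBS and 543 ± 15.7 CPM after WGP (SD, n = 3 each), below the fold threshold with a log2 fold change of 0.51. In the list of 10 transcription factors of the lineage, Cebpb was called higher (log2 fold change 1.45) and Id1 lower (-2.22), and 8 were not called.

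Prg2 encodes major basic protein, the core of the eosinophil granule, and lies at chr2:84980461-84983632 (plus strand). The PBS libraries held 410, 16 and 30 counts and the WGP libraries 13, 0 and 0. Every WGP library lay below every PBS library, but 90.3% of the summed CPM of the PBS group was in replicate 1. The log2 fold change of Prg2 was -5.04 (SE 2.11; edgeR adjusted p = 0.159). Without PBS replicate 1 it was -2.26, with an edgeR adjusted p of 0.749. In units of the most frequent low count, PBS replicate 1 stood at 9.93 and the other libraries at 1.10 or less. On that scale the groups overlapped, since PBS replicate 2 stood at 0.52 and WGP replicate 1 at 0.72.

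Epx, the gene of eosinophil peroxidase (chr11:87864000-87875536, minus strand), had 50 counts in PBS replicate 1 and 0 in the other 5 libraries. Ear6 (chr14:51853699-51854643, plus strand) had 87 counts in that library and 0 in the others. Ear1 (chr14:43818765-43875517, minus strand) had 28 counts in PBS replicate 1, 2 in replicate 2 and 0 elsewhere. These 3 genes were therefore seen almost entirely in 1 library of the 6. With a floor of 3 counts over the WGP group, their level after PBS was at least 16.8-fold higher for Epx, 29.2-fold for Ear6 and 10.1-fold for Ear1. The bounds rest on PBS replicate 1, since without it Epx and Ear6 were at 0 in every library and the ratio for Ear1 was 0.995. They also count reads as molecules. With the floor set at 3 times the most frequent low count of the WGP libraries, the ratios were 0.533, 0.928 and 0.320, so no difference was detectable at this depth on that scale. None of the 3 was called (edgeR adjusted p of 0.355, 0.297 and 0.386).

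Several genes of basophils and mast cells were also seen mainly in PBS replicate 1. Mcpt8, a protease of mouse basophils, had 396, 34 and 0 counts after PBS and 0 in all libraries after WGP. Prss34, another basophil protease, had 426 counts in PBS replicate 1 and 4 in WGP replicate 2, and 0 elsewhere. Fcer1a and Ms4a2, chains of the high-affinity IgE receptor, had 46 and 40 counts in PBS replicate 1 and 0 in all others. Tpsb2, a mast cell tryptase, had 32 counts in that library and 0 in the others. Cd200r3, a receptor of basophils and mast cells, had 0, 38 and 7 counts after PBS and 0 after WGP. Cma1, a mast cell chymase, had 15, 201 and 29 counts after PBS and 52, 0 and 0 after WGP. Of the 10 mast cell and basophil markers 8 were tested, 7 were at 0 in all WGP libraries, and the mast cell proteases Cpa3 and Mcpt4 were at 0 in all 6. The summed level of the list was 41.2, 14.9 and 12.6 CPM in the PBS libraries and between 32.8 and 48.5 CPM after WGP, where nearly all of it was Kit. Kit, the stem cell factor receptor of mast cells and progenitors, was the single marker called, and it was higher (log2 fold change 1.72). The part of basophils in the counts of Prg2, Epx, Ear1 and Ear6 was not tested. PBS replicate 1 stood at least 3-fold above both other PBS libraries in 2.85% of the 11681 genes, against 0.574% and 0.762% for PBS replicates 2 and 3.

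**Figure D2:**
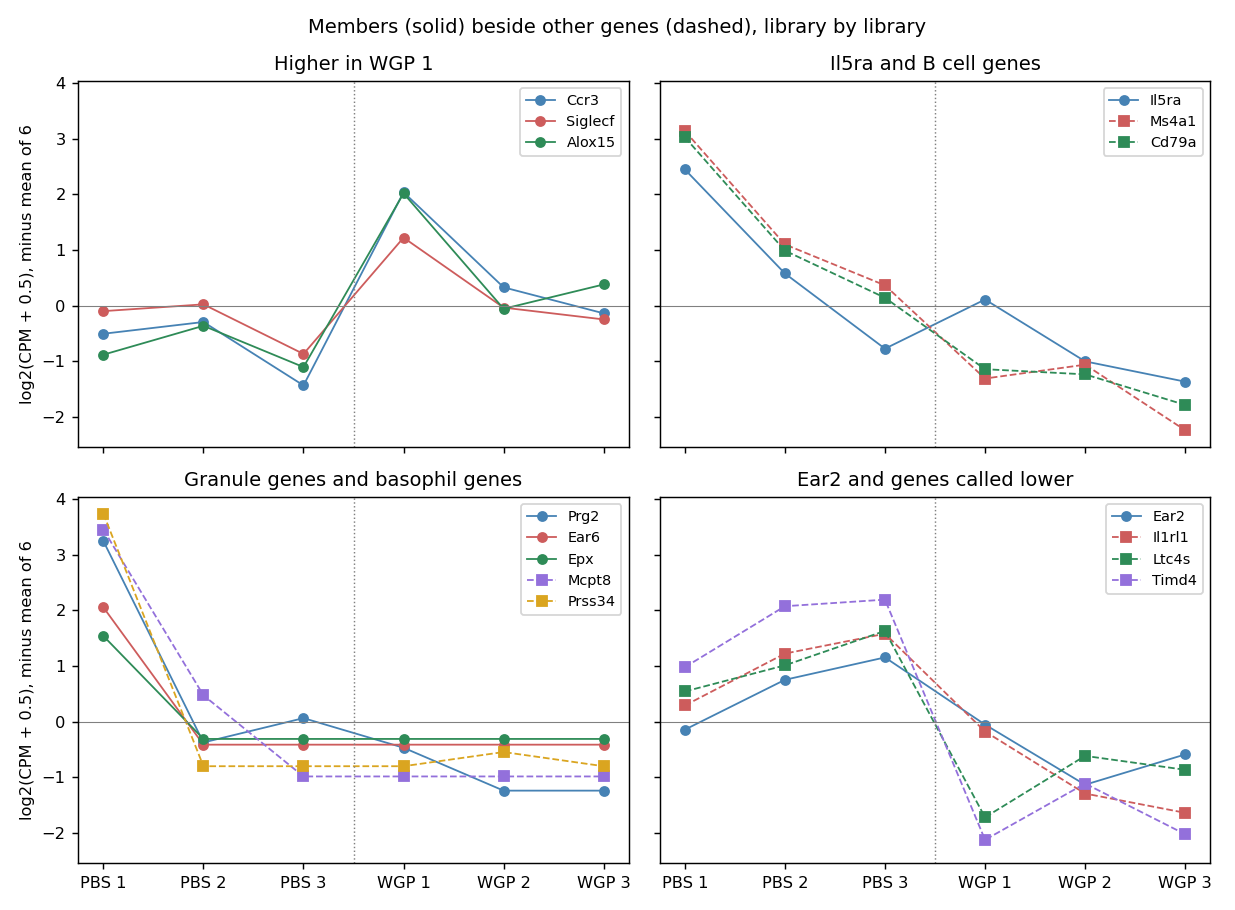
log2(CPM + 0.5) of single genes in each library, centred on the mean of the 6 libraries; solid lines are eosinophil genes, dashed lines other genes, and lines join the libraries of 1 gene only to guide the eye. Il5ra was highest in PBS replicate 1 with the B cell genes, Prg2, Ear6 and Epx in the same library with Mcpt8 and Prss34, and Ear2 ran with Il1rl1 in its order over the PBS libraries.

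Ear2 was the EAR gene with a level in every library. It encodes a secreted ribonuclease of eosinophils, monocytes and macrophages and lies at chr14:44102654-44103534 (plus strand). The PBS libraries held 939, 1787 and 2487 counts of Ear2 and the WGP libraries 960, 500 and 729. In CPM these are 24.4, 45.9 and 60.8 after PBS and 26.1, 12.1 and 17.8 after WGP. The groups overlapped, since PBS replicate 1 lay just below WGP replicate 1. Ear2 was called lower, with a log2 fold change of -1.23 (SE 0.36; edgeR adjusted p = 0.0487). The call was lost when PBS replicate 2 or 3 or WGP replicate 2 or 3 was left out, with edgeR adjusted p between 0.125 and 0.167 and log2 fold changes of -1.19, -0.91, -0.99 and -1.20. limma-voom gave a log2 fold change of -1.23 with an adjusted p of 0.0653. With the presence of Y-linked RNA as a covariate the log2 fold change was -0.39, with an edgeR adjusted p of 0.619. PBS replicate 1, the only PBS library without that RNA, was also the lowest PBS library for Ear2. It was the lowest too for Csf1r (2008, 3893 and 4200 CPM) and Adgre1 (423, 793 and 756 CPM), genes of monocytes and macrophages, but the highest for Ptprc. The part of such cells in the order of the PBS libraries was not tested.

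The EAR genes are close copies of each other, which bears on how their reads could be counted. The start of each coding sequence, with the length of 1 read (75 bases), is printed from GENCODE vM21 (GRCm38) on the gene's strand, and capitals mark bases that differ from Ear2.
Ear2, chr14:44102887-44102961, plus strand: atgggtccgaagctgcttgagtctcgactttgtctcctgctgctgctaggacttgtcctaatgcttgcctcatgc
Ear1, chr14:43819335-43819409, minus strand: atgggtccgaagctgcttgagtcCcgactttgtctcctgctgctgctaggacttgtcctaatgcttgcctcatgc
Ear6, chr14:51853998-51854072, plus strand: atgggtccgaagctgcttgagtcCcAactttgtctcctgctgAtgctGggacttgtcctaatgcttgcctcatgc

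In this window Ear1 differed from Ear2 at 1 base and Ear6 at 4 bases. Over the whole coding sequence Ear1 and Ear2 were 95.1% identical, with a longest identical run of 96 bases, while Ear6 was 87.6% identical to Ear2 with a longest run of 37 bases. Of the 645 windows of 75 bases in the Ear2 transcript, 76.6% occur in no transcript of another gene. For Ear1 the share was 60.7% of 639 windows, the others being shared with Ear2, Ear10 or the pseudogenes Ear-ps2 and Ear-ps9. All windows of the other 7 genes were unique. How reads that fit several genes were counted is not given in the sources used here, so the counts of Ear1 and Ear2 are uncertain to that extent. Exons of Ear1 also overlap those of Ear-ps9 by 17 bases on the same strand.

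The promoters of Ear1 and Ear2 are shown because they are nearly the same while the 2 genes differ in level. The 250 bases before each start are from RefSeq (GRCm38.p6), and capitals mark the match to TTGCNNAA, the core of a C/EBP site, searched on both strands.
Ear1, chr14:43819640-43819889, minus strand: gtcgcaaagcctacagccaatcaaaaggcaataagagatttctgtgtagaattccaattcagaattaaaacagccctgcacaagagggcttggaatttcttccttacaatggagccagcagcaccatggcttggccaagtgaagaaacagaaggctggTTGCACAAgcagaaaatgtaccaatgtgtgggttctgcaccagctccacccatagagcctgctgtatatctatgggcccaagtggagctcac
Ear2, chr14:44102404-44102653, plus strand: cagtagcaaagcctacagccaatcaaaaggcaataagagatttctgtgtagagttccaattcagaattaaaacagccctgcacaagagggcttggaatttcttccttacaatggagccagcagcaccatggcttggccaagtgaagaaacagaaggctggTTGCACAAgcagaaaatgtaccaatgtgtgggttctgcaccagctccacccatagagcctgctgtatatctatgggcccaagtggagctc

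These promoters were identical at 246 of 248 aligned bases, and that of Ear6 was identical to the Ear2 promoter at 211 of 247. The C/EBP match was present in 2 of the 7 promoters, those of Ear1 and Ear2, and in 9.56% of all promoters. The level of Ear2 was 60.8 ± 25.4 CPM per kb after PBS and 25.9 ± 9.78 after WGP (SD, n = 3 each). The level of Ear1 was 0.356 ± 0.557 CPM per kb after PBS (SD, n = 3) and 0 in every WGP library.

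Alox15 encodes the 12/15-lipoxygenase, an enzyme that oxidises arachidonic and linoleic acid in eosinophils and resident macrophages. It lies at chr11:70344152-70352031 (minus strand). The PBS libraries held 457, 672 and 414 counts and the WGP libraries 3383, 889 and 1195. In CPM these are 11.9, 17.3 and 10.1 after PBS and 91.8, 21.4 and 29.2 after WGP. Every WGP library lay above every PBS library, and WGP replicate 1 held 64.5% of the summed CPM of its group. Alox15 was called higher, with a log2 fold change of 1.86 (SE 0.49; edgeR adjusted p = 0.0294). With WGP replicate 1 left out it was 0.95 and the call was lost (edgeR adjusted p = 0.126). The call was also lost without PBS replicate 1, 2 or 3 (edgeR adjusted p of 0.0683, 0.0573 and 0.0901), with log2 fold changes between 1.71 and 2.11. It was lost as well with limma-voom (adjusted p = 0.108) and with a replicate block (edgeR adjusted p = 0.0512). With the presence of Y-linked RNA as a covariate Alox15 was not called either, at a log2 fold change of 2.00.

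**Figure D3:**
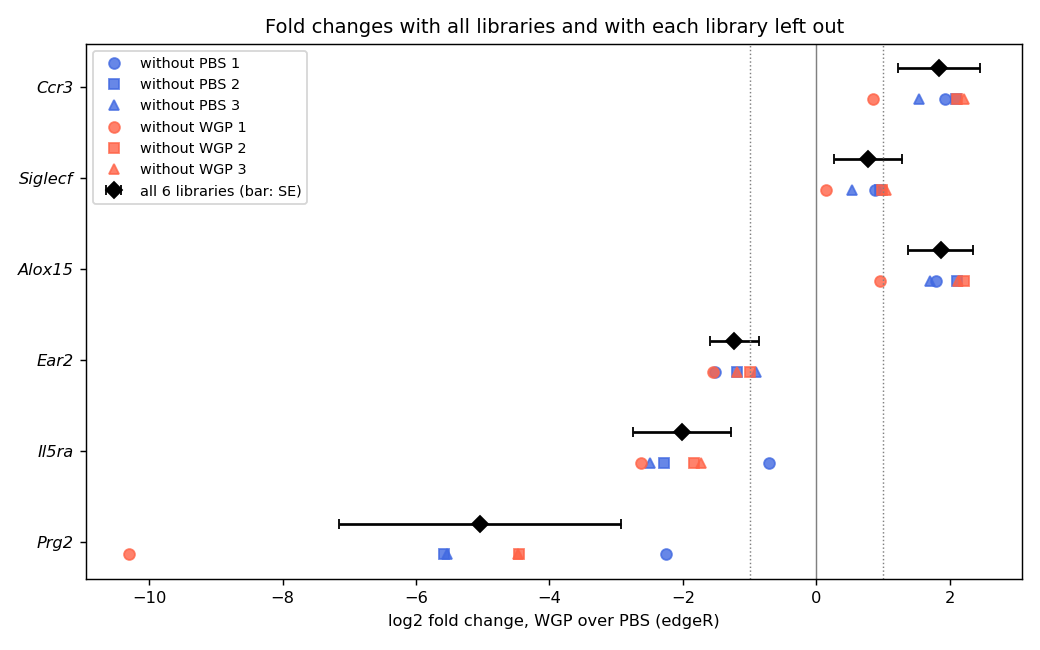
Fitted log2 fold change (WGP over PBS, edgeR) of the 6 genes with counts in both groups, with all libraries (black diamonds, bars are SE) and with each library left out in turn (coloured points); dotted lines stand at 1 and -1. Leaving out WGP replicate 1 brings Ccr3 to 0.85, Alox15 to 0.95 and Siglecf to 0.14, and leaving out PBS replicate 1 brings Il5ra to -0.71 and Prg2 to -2.26.

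Other enzymes of the lipid mediator pathways were set beside Alox15. Of the 9 in the list, all tested, 4 were called lower and 1 higher, and the median log2 fold change was -2.14 against -0.05 over all genes tested. Alox5, the 5-lipoxygenase that starts leukotriene synthesis, fell by 2.15 on the log2 scale, and Ltc4s, the leukotriene C4 synthase, fell by 2.14. Hpgds, the hematopoietic prostaglandin D synthase, fell by 2.41, and Ptgs1 by 1.49. Ptgs2, the inducible cyclooxygenase, rose by a log2 fold change of 3.02. Alox12 had 32 counts in PBS replicate 1 and 0 elsewhere, and Alox8 had 0, 27 and 23 counts after PBS and 0 after WGP. Markers of the large peritoneal macrophage, another cell with Alox15, were checked too. Of the 8, all tested, with a median log2 fold change of 0.50 against -0.05 over all genes tested, Timd4, a receptor for dying cells, was called lower (log2 fold change -3.55) and 7 were not called. Their summed level was between 182 and 500 CPM after PBS and between 76.4 and 211 CPM after WGP, most of it from Timd4, Prg4 and Cd5l. Gata6, the factor that defines those macrophages, had 26, 31 and 58 counts after PBS and 0, 277 and 38 after WGP. The part of these macrophages in the Alox15 values was not tested.

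The level of the 9 genes per kilobase of exon gives their order within a group. After PBS, Ear2 stood at 60.8 ± 25.4 CPM per kb, above all others. Il5ra at 7.43 ± 7.81, Alox15 at 5.33 ± 1.51 and Prg2 at 4.70 ± 6.96 CPM per kb did not differ beyond their spread. Siglecf followed at 2.28 ± 0.736 and Ccr3 at 1.38 ± 0.563, lower than Siglecf in each PBS library although the ranges of the 2 genes overlapped, and then Ear6, Ear1 and Epx at 0.798, 0.356 and 0.158 CPM per kb. After WGP, Ear2 at 25.9 ± 9.78 and Alox15 at 19.4 ± 15.7 CPM per kb overlapped. Ccr3 at 4.92 ± 4.25, Siglecf at 3.90 ± 2.43 and Il5ra at 1.84 ± 1.12 CPM per kb also overlapped, and Prg2 stood at 0.140 ± 0.243 (SD, n = 3 for each value). The order of the means leans on replicate 1 of each group. In PBS replicates 2 and 3 Alox15 already stood above Il5ra (7.03 against 4.37 and 4.12 against 1.63 CPM per kb) and above Prg2 (0.490 and 0.875 CPM per kb).

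Further genes of eosinophils were mostly at 0. Of 9 others in a second list, 5 were at 0 in all libraries, namely Prg3, Ear10, Ear14, Rnase2b and Hrh4, and Ptgdr2 had 10 counts in WGP replicate 2 alone. For counting error alone, a 0 in the 3 libraries of a group allows up to 3 counts over that group. Ear10 shares windows of 75 bases with Ear1 and Ear2, so its 0 carries the same uncertainty of counting. Of the 3 that were tested, Il1rl1, the receptor of interleukin 33 found on eosinophils, mast cells and innate lymphoid cells, was called lower. Its counts were 1176, 2291 and 3086 after PBS and 810, 410 and 314 after WGP, with a log2 fold change of -2.06 (SE 0.43; edgeR adjusted p = 0.00916). With the presence of Y-linked RNA as a covariate the call was lost (edgeR adjusted p = 0.144, log2 fold change -1.22). Cebpe, a factor of granule formation in neutrophils and eosinophils, was at 5.48 ± 5.09 CPM after PBS and 4.85 ± 1.81 after WGP (SD, n = 3 each) and was not called. Rnase2a had 36, 0 and 34 counts after PBS and 0, 0 and 14 after WGP.

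The chemokines listed as CCR3 ligands gave 3 calls. Of the 6 in the list, all tested, 2 were called lower and 1 higher. Whether each of them binds the mouse receptor was not tested. The eotaxin Ccl24 was at 89.0, 165 and 188 CPM after PBS and at 4.89, 9.19 and 4.01 CPM after WGP, a log2 fold change of -4.61 (SE 0.39; edgeR adjusted p = 4.24e-05). Ccl7, a monocyte chemoattractant that also binds CCR3, was called lower with a log2 fold change of -2.48 (SE 0.28). Ccl5, which attracts T cells and eosinophils, was called higher with a log2 fold change of 2.59 (SE 0.41). The calls of these 3 ligands held in each of the 16 other fits. The other eotaxin of mice, Ccl11, had 109, 133 and 173 counts after PBS and 49, 477 and 1 after WGP, without a call. Ccl26 had 0, 68 and 6 counts after PBS and 0 after WGP, and Ccl8 was not called (log2 fold change 0.59).

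The beta chain that pairs with Il5ra rose. Of 7 genes of the interleukin 5 family, 5 were tested and 2 were called, both higher. Csf2rb, the common beta chain, rose from 215 ± 11.1 to 1083 ± 102 CPM (SD, n = 3 each), with a log2 fold change of 2.33 (SE 0.15; edgeR adjusted p = 1.23e-05). Csf2rb2, the beta chain that serves interleukin 3 in mice, rose from 82.2 ± 7.14 to 528 ± 41.4 CPM, with a log2 fold change of 2.68 (SE 0.15). Il3ra was at 54.6 ± 7.34 CPM after PBS and 54.9 ± 6.39 CPM after WGP. The cytokine genes Il5 and Il3 were at 0 in all libraries. In the list of 9 type 2 cytokines and receptors, 7 were tested and 1 was called, Tslp, an epithelial alarmin, at 11.5 ± 1.54 CPM after PBS and 1.01 ± 0.290 CPM after WGP (log2 fold change -3.51).

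**Figure D4:**
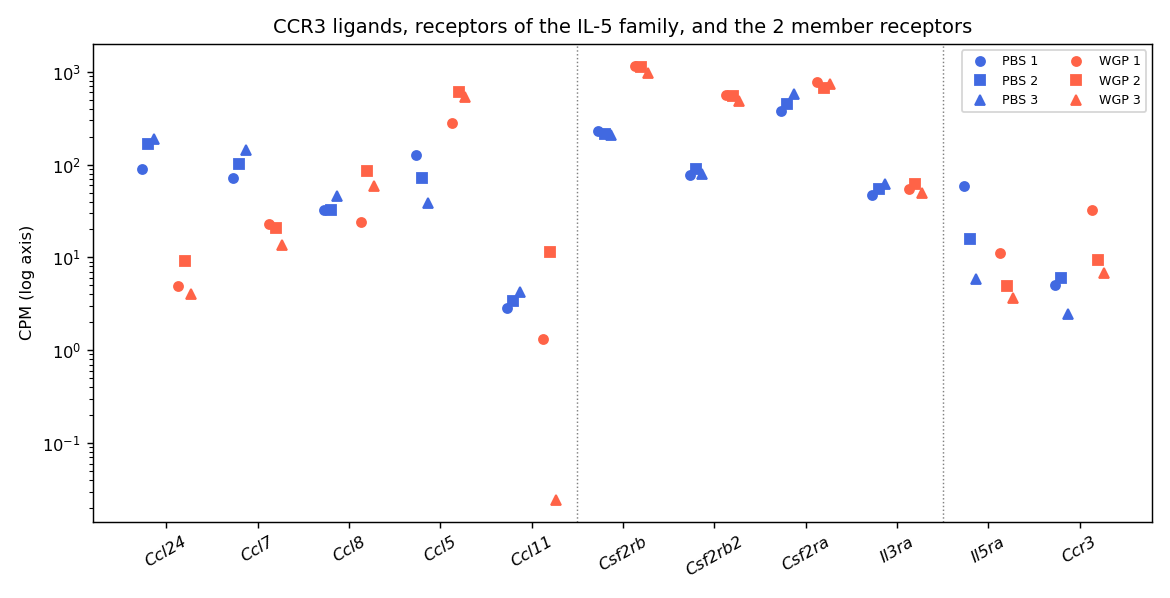
CPM on a log axis of 5 listed CCR3 ligands, 4 receptor chains of the interleukin 5 family, and Il5ra and Ccr3, in each library. PBS is blue and WGP red, and circle, square and triangle are replicates 1, 2 and 3. Ccl26, with 0 counts in 4 of 6 libraries, is not drawn; Ccl24 and Ccl7 lay lower and Ccl5, Csf2rb and Csf2rb2 higher in every WGP library, while Il5ra overlapped between groups.

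Cells of the monocyte line carry Ear2, and their markers were set beside it. Of 7 markers of Ly6C-low monocytes, all tested, 3 were called lower and 1 higher. Their summed level was 2091, 2126 and 1669 CPM after PBS and 1589, 727 and 1170 CPM after WGP, so the WGP libraries had the same order for this sum and for Ear2. Among the PBS libraries the sum was lowest in replicate 3, where Ear2 was highest. Most of the sum after PBS was Nr4a1, which was not called (1374, 1255 and 938 CPM). Of the called markers, Ace, Cx3cr1 and Treml4 were lowest in PBS replicate 1, as Ear2 was, and Eno3 in PBS replicate 3. Ace was at 173, 243 and 239 CPM and Cx3cr1 at 278, 388 and 314 CPM. The part of these monocytes in the Ear2 values was not tested. Among neutrophil markers, another granulocyte, 1 of 11 was called higher and 1 lower, and their summed level was highest in PBS replicate 1 at 6434 CPM, against 2407 to 3720 CPM in the other libraries. Acinar genes of the pancreas, 8 of 10 of them called lower, summed to 2192, 5204 and 1363 CPM after PBS. After WGP they summed to 400, 610 and 364 CPM. The order of the PBS libraries was the same for Siglecf, Ccr3 and Alox15. Among the WGP libraries the acinar sum was highest in replicate 2, and Siglecf, Ccr3 and Alox15 were highest in replicate 1.

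Genes with the most similar pattern over the 6 libraries were sought by the root-mean-square difference of log2(CPM + 0.5), centred for each gene. Ccr3 and Alox15 were each other's nearest of all 11681 genes with a mean of at least 1 CPM, at a difference of 0.335. The next nearest to Ccr3 were Zbtb3 (0.377) and Nfil3 (0.396), a transcription factor that was called higher (log2 fold change 1.41). Alox15 was followed by Zbtb3 (0.361) and the cytokine Osm (0.411), called higher with a log2 fold change of 1.17. These genes share a highest level in WGP replicate 1.

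Siglecf was nearest to Fosl2 (0.175), Il23a (0.197) and Dusp5 (0.245), none of them called. Prg2 was nearest to Gpr55 (0.246), Krt222 (0.325) and Sox5 (0.396), which were all highest in PBS replicate 1. Of these, Sox5 was called lower (log2 fold change -4.06). Il5ra was nearest to Syn3 (0.114), Gramd2 (0.244) and Klra1 (0.272). Ear2 was nearest to Nav1 (0.101), called lower with a log2 fold change of -1.20, and then to Zfp40 (0.165) and Tada2a (0.184). With 6 libraries in 2 groups, such likeness rests on few points, several of them on 1 high library.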

How the data were processed

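RNA of CD45+CD11b+ pancreatic cells (3 PBS and 3 WGP libraries) was sequenced as single-end reads of 75 bases. The authors aligned the reads to mm10 (GRCm38) with STAR 2.6 and deposited raw counts per Ensembl gene from HTSeq 0.10.0, without normalization. The setting for reads that fit several genes and the strand setting are not given in the sources used here. Totals per library were between 35334645 and 43341834 counts. The reads had no molecular identifiers, so floors cover counting error only, and a floor of 3 counts over a group was used for genes at 0.

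Protein-coding genes entered the test if their RLE-normalized counts summed to 10 or more, which left 14429, and WGP was compared with PBS with the quasi-likelihood test of edgeR 4.0.16 in R 4.3.3 after TMM scaling, with Benjamini-Hochberg adjustment over all of them. The test was tried on simulated data of the same size, where 61% of 200 genes changed by a log2 fold of 2 were called. Alternatives were limma-voom (limma 3.58.1), DESeq2 1.42.0, other scalings and filters, other call rules, a replicate block, counts divided by the most frequent low count, a covariate for Y-linked RNA, and each library left out. The fit without PBS replicate 1 and WGP replicate 1 together was added after seeing the data. The 9 members and all gene lists were chosen with earlier results of these data known. Genes named are the members, called and leading genes of each list, and the 3 genes nearest in pattern to a member. Leading means the first 2 of a list. Ear14, Rnase2a, Rnase2b, Hrh4, Ptgdr2, Cebpe, Ccl8, Ccl26, Il3ra, Spi1, Alox8, Alox12, Krt79, Fabp1, Itgax, Prg4, Cd5l, Fcer1a, Ms4a2, Tpsb2, Cma1, Cd200r3, Cpa3 and Mcpt4 fall outside this rule and were named after their values were seen. Replicate numbers did not pair the libraries (correlations of same-numbered libraries between -0.088 and 0.063 over 11681 genes). Promoters are RefSeq's (GRCm38.p6), transcripts GENCODE's (vM21). A gene was removed from 1 of the marker lists and is not reported here.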

Additional observations from a re-analysis of the deposited data

How the results depend on the processing

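Of the 9 eosinophil genes 2 were called. With other call rules 2 were called at an adjusted p of at most 0.05 alone, when 2071 genes were called over the whole table, and 0 when the log2 fold change had to be 2 or more in size (edgeR), when 568 genes were called; 5 of the 9 had an unadjusted p under 0.05, as had 26.0% of all genes tested. DESeq2 called 4 of the 9, adding Ccr3 (adjusted p = 0.0348) and Il5ra (0.0321) to Ear2 and Alox15, and gave no adjusted p for Prg2 and Ear6; it called 11.8% of all genes, against 9.49%. With counts divided by the most frequent low count edgeR called 3 of the 9, adding Ccr3 (adjusted p = 0.0318), and 11.2% of all genes. limma-voom called 0, against 9.48% of all genes, with 3 at an unadjusted p under 0.05, against 26.9%. The filter of filterByExpr kept 6 of the 9 (not Epx, Ear1 and Ear6) and left 1 called, Alox15, against 10.7% of all genes; Ear2 had a log2 fold change of -1.23 and an edgeR adjusted p of 0.0626. With the presence of Y-linked RNA as a covariate, WGP is in effect set against PBS replicate 1 alone, so fold changes are given here without a count of calls. The log2 fold change was then -3.15 for Il5ra, -0.39 for Ear2, 2.00 for Alox15 and -1.22 for Il1rl1. In that fit Il5ra gained a call, and Ear2, Alox15 and Il1rl1 lost theirs. Each library left out in turn gave between 0 and 2 calls among the 9, with 0 without PBS replicate 2, and between 1146 and 1396 over all genes. Without both PBS replicate 1 and WGP replicate 1, 1 was called, Ear2 (log2 fold change -1.84), against 9.17% of all genes. With the replicate block 1 was called, Il5ra (log2 fold change -1.58, edgeR adjusted p = 0.0269), against 9.29% of all genes. The replicate numbers do not pair the libraries, so this is given as a value only. No fold change of the 6 members with counts in both groups changed sign in any alternative run; for the 3 at 0 after WGP the sign was fixed. Over the 16 other fits Ear2 was called in 8, between -1.84 and -0.39, and Alox15 in 8, between 0.89 and 2.21. Scaling by library totals only shifted the median of all genes by -0.10, and 40.2% of all calls were then higher, against 47.7%; Ear2 and Alox15 were called there too. The cause of these changes was not tested.

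The counts limit what can be said of Epx, Ear1 and Ear6, which were seen almost entirely in 1 library, and of every result that leans on WGP replicate 1 or PBS replicate 1. Removing a library also leaves fewer libraries for the test, so a lost call alone does not show a smaller effect, although some lost calls, such as that of Alox15 without WGP replicate 1, came with a smaller fold change.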
